A study of Caenorhabditis elegans with 15 samples.

Results

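The *ugt* genes of *Caenorhabditis elegans* encode UDP-glucuronosyltransferases. They were taken here as every gene of the deposited count table whose name is *ugt* followed by a number and that had 10 or more counts in at least 3 libraries. This rule, which does not use strain labels, kept 61 of the 65 genes so named, out of 46756 genes in the table. Of the 61, 5 were under 10 counts in every N2 library and were kept through mutant libraries alone. The genes *ugt-15*, *ugt-27*, *ugt-35* and *ugt-38* fell short of the rule, with 10 counts reached in 2, 1, 0 and 0 libraries. The study set worms with mutations in the synaptic adhesion genes *nrx-1* (neurexin) and *nlg-1* (neuroligin) beside the wild-type strain N2 and sequenced their total RNA. There were 15 libraries, 3 per strain, each from about 20000 synchronized young adults kept at 20 °C on *E. coli* OP50. The mutant strains were *nrx-1* (ok1649), whose deletion affects the long alpha isoforms, *nrx-1* (tm1961), whose deletion targets the long alpha isoforms alone, *nlg-1* (ok259), described as a full knockout, and *nlg-1* (tm474), which carries a deletion inside the *nlg-1* locus. The ok strains and N2 came from the *Caenorhabditis* Genetics Center and the tm strains from the National BioResource Project of Japan. According to the study, the tm1961, ok259 and tm474 alleles had different genetic backgrounds and no backcross was made ahead of sequencing. For these strains, genotype and background cannot be told apart in a comparison with N2. Whole worms were used, so that a library holds every tissue. In such bulk RNA, fewer cells of a type and less RNA per cell cannot be told apart.

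UDP-glucuronosyltransferases are membrane enzymes of the endoplasmic reticulum. They move the sugar of a UDP-sugar onto small fat-soluble molecules, which become more soluble in water and can be exported. This step is known as phase II of xenobiotic metabolism. It follows oxidation by cytochrome P450 enzymes (phase I) and comes before export by ABC transporters. Nematodes have many more of these enzymes than mammals do, many of the genes lie in tandem arrays, and the worm intestine is a main site of this metabolism. Individual substrates are known for few of the worm enzymes, so most members below are named only.

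Total counts ran from 10152578 to 26211067 per library. The gene *nrx-1* had 6.59 to 8.81 CPM in *nrx-1* (ok1649) and 4.02 to 7.90 CPM in *nrx-1* (tm1961), against 9.71 to 11.8 CPM in N2, and *nlg-1* had 8.15 to 10.2 CPM in *nlg-1* (ok259) and 1.35 to 6.76 CPM in *nlg-1* (tm474), against 11.1 to 18.0 CPM in N2. In the *nrx-1* strains *nlg-1* had medians of 5.12 CPM (ok1649) and 3.52 CPM (tm1961), below the 8.87 CPM of *nlg-1* (ok259). Its ranges there, 2.789 to 12.03 CPM (ok1649) and 2.921 to 16.99 CPM (tm1961), overlapped those of *nlg-1* (ok259) and N2. No test of *nlg-1* is given here, so that its levels are a description only. Exon counts of the whole gene do not check a deletion, and the full knockout described for *nlg-1* (ok259) was not tested. CPM are library-size normalised counts scaled with TMM factors over the 15 libraries. The libraries of a strain stood apart in several measures. Noncoding RNA genes took 15.6% to 30.3% of the counts in 8 mutant libraries, namely replicates 2 and 3 of *nrx-1* (ok1649) and of *nlg-1* (ok259), all of *nrx-1* (tm1961) and replicate 2 of *nlg-1* (tm474). They took 2.99% to 7.35% in the other 4 mutant libraries and 4.03% to 5.50% in N2. Yolk genes (6 of 6 found, none at 0) summed to 120208, 164271 and 147545 CPM in replicate 1 of *nrx-1* (ok1649), *nlg-1* (ok259) and *nlg-1* (tm474), to 356.2 to 8268 CPM in the other mutant libraries, and to 8836 to 19972 CPM in N2. The same 3 libraries had 2485 to 3007 CPM over 6 germ line genes and 7433 to 9987 CPM over 7 oocyte and eggshell genes, the other mutant libraries 341.3 to 980.9 and 84.4 to 1028 CPM, and N2 1002 to 1246 and 1249 to 2174 CPM. The libraries of these strains thus differed in noncoding RNA and in yolk, germ line and oocyte genes, and the part of these in the results below was not tested.

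The members were spread over a wide range of levels, and most lay on chromosome V. Of the 61 genes, 38 lay on chromosome V, 12 on IV, 4 each on I and X, 2 on III and 1 on II. In N2 the level per exon length ran from 0.0411 to 42.3 CPM per kb, with a median of 3.29, and 17 members were under 1 and 11 over 10 CPM per kb. The highest was *ugt-22* (WBGene00007455, chromosome IV, 13639260 to 13644567, plus strand, coordinates in WBcel235) at 42.3 ± 23.5 CPM per kb (SD, n = 3). It was followed by *ugt-62* at 30.1 ± 7.74, *ugt-47* at 28.4 ± 9.50, *ugt-23* at 25.5 ± 3.34 and *ugt-58* at 22.9 ± 1.99 CPM per kb. Each step between neighbours in this order was smaller than the larger of their SDs, so that the order of the 5 was not resolved. Another annotated gene shared exon bases with 16 members, on either strand. For *ugt-22* these were *srz-29* and piRNA genes, for *ugt-47* it was *srd-49*, and *ugt-19* and *ugt-20* each held a piRNA gene. The strand setting of the counting is not given in the sources used here, so that these levels are uncertain to that extent.

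Together the *ugt* genes had higher summed levels in the mutant libraries than in N2 after TMM scaling, a difference that was not tested. The summed level of the 61 genes was 1387, 2584 and 2331 CPM in *nrx-1* (ok1649), 879.2, 1554 and 1692 CPM in *nrx-1* (tm1961), 884.1, 1517 and 2087 CPM in *nlg-1* (ok259) and 1494, 1696 and 1242 CPM in *nlg-1* (tm474), against 768, 806.5 and 549.7 CPM in N2. Each of the 12 mutant libraries lay above the highest N2 library on this scale. The lowest were replicate 1 of *nrx-1* (tm1961) and replicate 1 of *nlg-1* (ok259). In plain CPM without TMM factors, replicate 1 of *nlg-1* (ok259) had 575.1 and was below all N2 libraries, which had 641.4 to 765.0, while the other mutant libraries had 920.1 to 3123. The mean sums were 2101 ± 631.3 CPM in *nrx-1* (ok1649), 1375 ± 434.8 CPM in *nrx-1* (tm1961), 1496 ± 601.7 CPM in *nlg-1* (ok259) and 1478 ± 227.5 CPM in *nlg-1* (tm474), against 708 ± 138.5 CPM in N2 (SD, n = 3 each). In the mutant libraries 22 to 51 of the 61 members were above the highest N2 library and 3 to 12 below the lowest. For 5 of the 61 (*ugt-3*, *ugt-10*, *ugt-14*, *ugt-34* and *ugt-56*) every N2 library was under 10 counts, so that they met the choice of members through mutant libraries alone. Among the other 56 members, 20 to 46 were above and 3 to 11 below. The share of all genes outside the N2 range was not computed for single libraries, so that these counts are a description only. Relative to the N2 mean, the median log2 ratio over all 61 members was 0.38 to 1.44 in the 8 mutant libraries rich in noncoding RNA and 0.11 to 0.53 in the other 4 mutant libraries, against -0.16 to 0.12 in N2. The same 8 libraries had summed levels of 879.2 to 2584 CPM (median 1694) and the other 4 had 884.1 to 1494 CPM (median 1314).

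**Figure D1:**
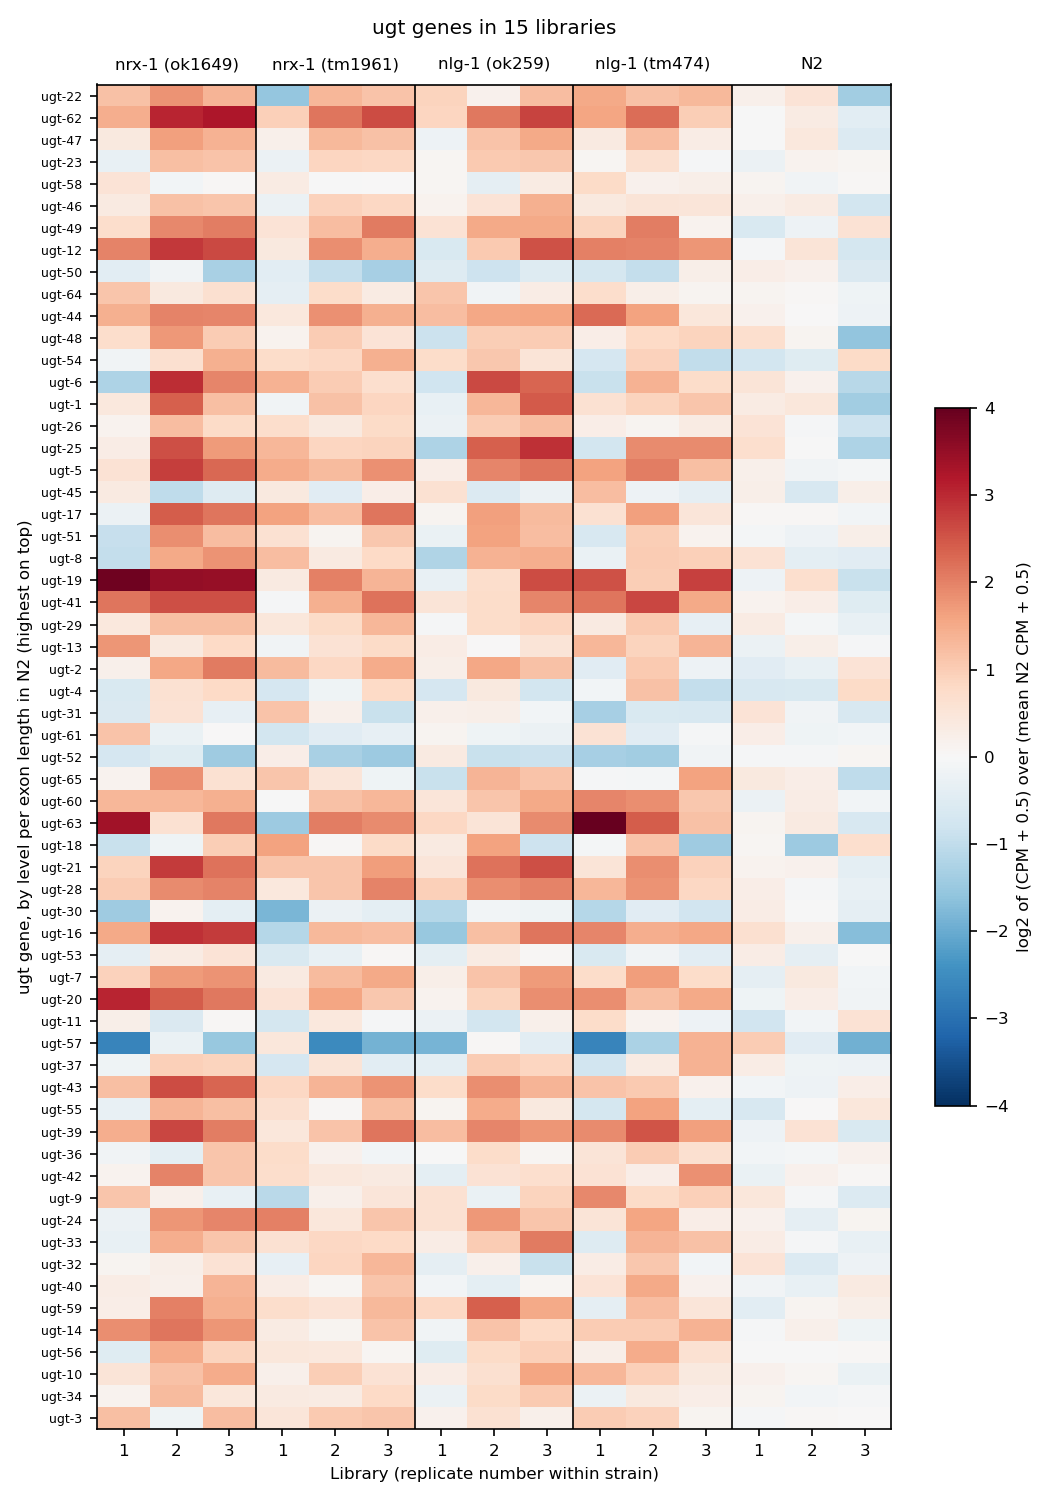
Each row is one of the 61 *ugt* genes, ordered by level per exon length in N2, and each column a library, with the mutant strains left of N2. Colour gives the log2 of CPM + 0.5 over the mean N2 CPM + 0.5 (red above N2, blue below). In replicates 2 and 3 of *nrx-1* (ok1649) and *nlg-1* (ok259), 45 to 51 of the 61 genes were above the highest N2 library. The share of all genes above N2 in these libraries was not computed. The genes *ugt-19* and *ugt-20* were red in all 3 *nrx-1* (ok1649) libraries.

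**Figure D2:**
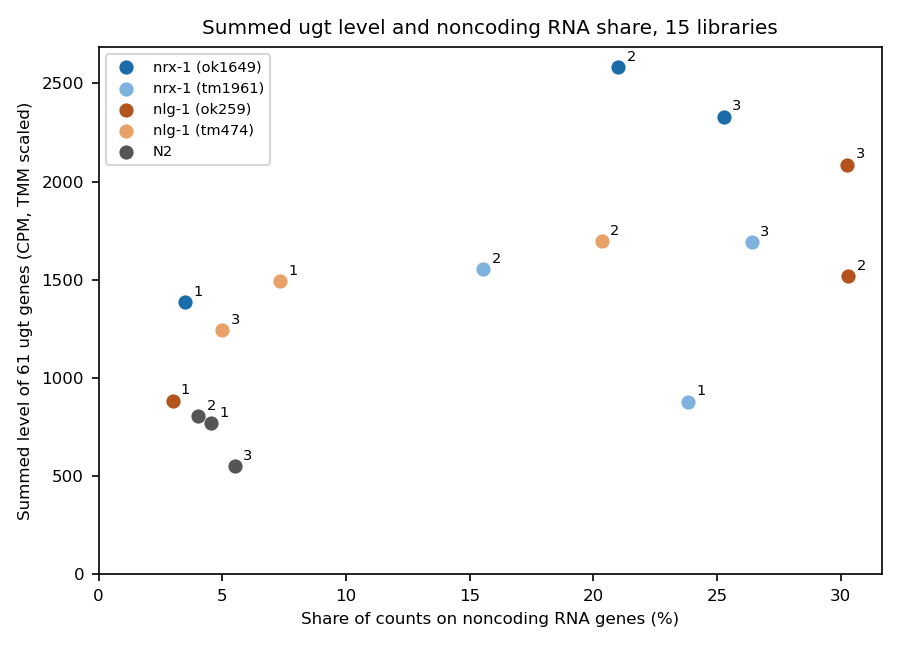
Each point is 1 of the 15 libraries, labelled with its replicate number. The horizontal axis gives the share of counts on noncoding RNA genes (%) and the vertical axis the summed level of the 61 *ugt* genes (CPM). The 4 mutant libraries with under 10% noncoding RNA had 884.1 to 1494 CPM and the 3 N2 libraries 549.7 to 806.5 CPM.

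In *nrx-1* (ok1649) most *ugt* genes had higher mean levels than in N2, but none passed the criteria of the study (adjusted p below 0.05 and absolute log2 fold change above 1) in edgeR's quasi-likelihood test. Of the 57 members tested, 50 had a positive log2 fold change, and the values ran from -1.65 for *ugt-57* to 3.64 for *ugt-19*. The median was 1.13 over these members and 0.16 over all 15957 genes tested, of which 0.0251% passed the criteria. There were 23 members that had an unadjusted p below 0.05 with a higher level in the mutant, against 13% of all genes, and 0 had one with a lower level, against 5.11%. All 3 mutant libraries lay above all N2 libraries for 24 of the 57 (15.9% of all genes) and below them for 1 (7.41%). DESeq2, the tool of the study, called 14 members, all higher (2.81% of all genes were called higher). Without a filter on low counts the median was 1.08 over all 61 members and 0.04 over all genes. The members not tested were *ugt-3*, *ugt-10*, *ugt-34* and *ugt-56*, whose counts were too low. The smallest adjusted p of a member was 0.212. Without a filter edgeR called 9 members, all higher, against 0.469% of all genes called higher. Without replicate 1 of the strain, edgeR called 31 members, 30 of them higher and 1 lower, in a fit that also called 21.2% of all genes higher and 24.6% lower. With replicate 1 as the only mutant library, the others being rich in noncoding RNA, the median was 0.12 over 60 members and -0.18 over all genes, and 0 members were called. The median over members was 0.57 to 1.40 with 1 library left out, and 0.61 when the noncoding share was in the fit, against 0.20 for all genes.

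In *nrx-1* (tm1961) 49 of 57 members tested had a positive log2 fold change, from -0.91 for *ugt-57* up to 2.09 for *ugt-62*. The median was 0.96 over the members and 0.11 over all genes. Again edgeR called 0 members, and 0% of 16268 genes. Of the members, 21 had an unadjusted p below 0.05 with a higher level, against 18.6% of all genes, and 0 with a lower level, against 15.6%. The mutant libraries were all above N2 for 16 members (18.0% of all genes) and all below for 1 (21.1%). DESeq2 called 14 members, all higher (11.7%). Blocking on replicate number, edgeR called 20 members, all higher (16.0% of all genes were called higher), and this strain is the one in which libraries of the same number deviated together with those of N2. Over all 61 members without a filter the median was 1.00, and over all genes 0.22. Every library of this strain was rich in noncoding RNA, so that strain and noncoding RNA cannot be told apart here, and in a fit of the 15 libraries that has the noncoding share as covariate the median was 0.19, against 0.21 for all genes. Without replicate 1 of the strain, edgeR called 22 members, 20 higher and 2 lower, together with 18.9% of all genes higher and 17.6% lower.

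In *nlg-1* (ok259) 43 of the 55 members tested had a positive log2 fold change, from -0.86 for *ugt-50* up to 2.47 for *ugt-59*, with a median of 0.76 against 0.03 over all genes. Here *ugt-14* and *ugt-40* were too low to be tested as well. edgeR called 0 members and 0% of 15905 genes. There were 8 members with an unadjusted p below 0.05 and a higher level, against 6.44% of all genes, and 0 with a lower level, against 7.76%. The mutant libraries were all above N2 for 14 members (15.8% of all genes), and for 0 members all below (7.49%). DESeq2 called 5 members, all higher (2.26%), namely *ugt-28*, *ugt-39*, *ugt-44*, *ugt-59* and *ugt-62*. Without a filter the median was 0.80 over all 61 members and 0.09 over all genes. Without replicate 1 of the strain, edgeR called 29 members, 28 higher and 1 lower, where 19.4% of all genes were called higher and 22.9% lower. The median over members was 0.38 to 1.24 with 1 library left out, and 0.23 when the noncoding share was in the fit, against 0.18 for all genes. With replicate 1 as the only mutant library the median turned to -0.24, against -0.17 for all genes, and 0 members were called.

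In *nlg-1* (tm474) 51 of 57 members tested had a positive log2 fold change, from -0.99 for *ugt-52* up to 3.06 for *ugt-63*, with a median of 0.86 against 0.08 over all genes. edgeR called 0 of them and 0% of 15947 genes. Here 16 members had an unadjusted p below 0.05 with a higher level, against 5.20% of all genes, and 0 with a lower level, against 3.21%. The mutant libraries were all above N2 for 26 members, against 8.20% of all genes, and all below for 2, against 6.85%. DESeq2 called 2 members, *ugt-41* and *ugt-63*, both higher (0.100% of all genes were called higher). Without a filter the median was 0.86 over all 61 members and 0.12 over all genes, and edgeR called 3 members, all higher, against 0.386% of all genes called higher. The median was 0.42 without replicate 2, the library of this strain that is rich in noncoding RNA, and 0.50 when that library was left out and the spread was shared with the other strains. One set of N2 libraries serves all 4 comparisons, which are therefore not independent of each other. With other scalings of the libraries the median over members stayed positive, at 1.11 to 1.35 for ok1649, 0.95 to 1.09 for tm1961, 0.86 to 1.08 for ok259, and 0.76 to 0.85 for tm474.

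**Figure D3:**
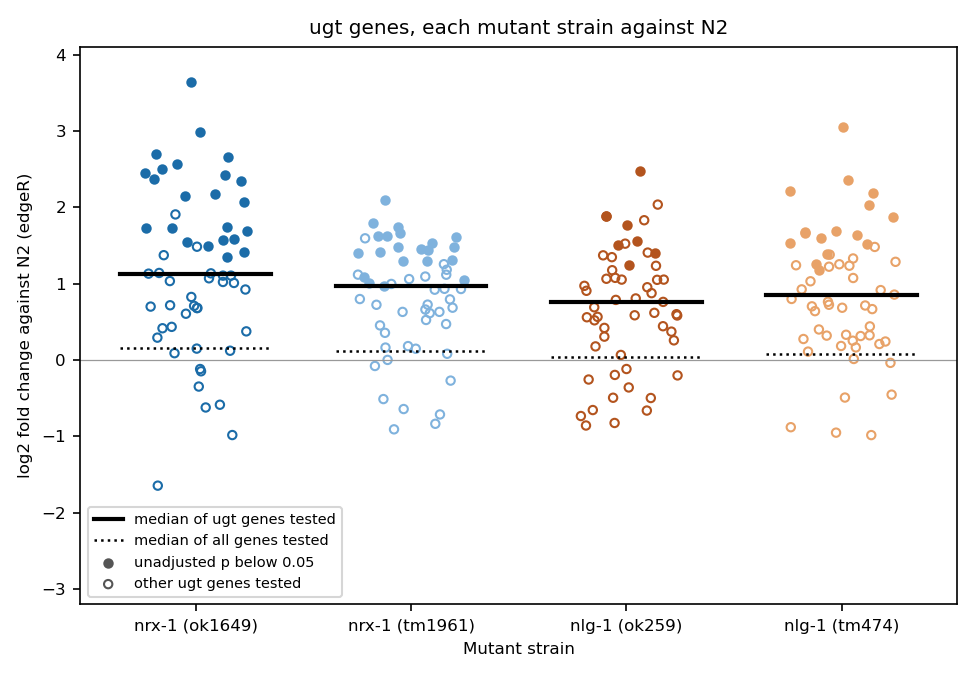
Each point is a *ugt* gene tested in edgeR, with its log2 fold change against N2 on the vertical axis and the mutant strain on the horizontal axis. Filled points had an unadjusted p below 0.05. The solid bars (median of the members: 1.13, 0.96, 0.76 and 0.86) lay above the dotted bars (median of all genes: 0.16, 0.11, 0.03 and 0.08), and no filled point lay below 0.

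Over the 5 strains together, an F test in edgeR on 17395 genes gave an unadjusted p below 0.05 for 16 of the 61 members (4.71% of all genes) and an adjusted p below 0.05 for 0 (0.0402%), the smallest being 0.668. The likelihood ratio test of DESeq2 gave 2, *ugt-19* and *ugt-20* (0.690% of all genes). These are neighbours on chromosome IV. The gene *ugt-19* (WBGene00019515, chromosome IV, 6076686 to 6079952, minus strand) had 130.2, 102 and 98.6 CPM in *nrx-1* (ok1649), 10.8, 35.4 and 22.3 CPM in *nrx-1* (tm1961), 6.68, 14 and 53.4 CPM in *nlg-1* (ok259) and 51.2, 17.1 and 58.1 CPM in *nlg-1* (tm474), against 7.18, 13.7 and 4.27 CPM in N2. The *nrx-1* (ok1649) libraries were above all others, those of *nlg-1* (tm474) were above N2, and those of the other 2 strains overlapped N2. In edgeR *ugt-19* had a log2 fold change of 3.64 in *nrx-1* (ok1649) (SE 0.61, adjusted p = 0.212, 6.28e-07 to 0.706 over the alternatives) and 2.21 (SE 0.59, adjusted p = 0.588) in *nlg-1* (tm474). In *nrx-1* (ok1649) replicate 1, with 3.51% noncoding RNA, had the highest value, and with that library alone the log2 fold change was 3.66.

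The gene *ugt-20* (WBGene00019516, chromosome IV, 6080895 to 6083600, minus strand) was the less abundant of the pair and also had its highest values in *nrx-1* (ok1649). It had 27.2, 17.4 and 14.1 CPM in *nrx-1* (ok1649), 4.40, 9.58 and 6.66 CPM in *nrx-1* (tm1961), 3.19, 5.72 and 11.8 CPM in *nlg-1* (ok259) and 11.7, 7.17 and 9.20 CPM in *nlg-1* (tm474), against 2.52, 3.56 and 2.53 CPM in N2. Only the *nlg-1* (ok259) libraries overlapped N2. Its log2 fold change was 2.70 (SE 0.49, adjusted p = 0.212) in *nrx-1* (ok1649), 1.30 (SE 0.40, adjusted p = 0.0846) in *nrx-1* (tm1961) and 1.59 (SE 0.47, adjusted p = 0.588) in *nlg-1* (tm474), all from edgeR. Over the 15 libraries the members most like *ugt-20* in log2(CPM + 1) were *ugt-19* (Pearson r 0.967), *ugt-12* (0.889) and *ugt-14* (0.846). The 15 points include the same strain groups and libraries throughout, and the correlations are given as a description.

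The gene *ugt-14* (WBGene00019233, chromosome V, 4906253 to 4908304, plus strand) was near the bottom of the range. It had 2.41, 3.04 and 2.19 CPM in *nrx-1* (ok1649), 0.494, 0.368 and 1.25 CPM in *nrx-1* (tm1961), 0.218, 1.28 and 0.902 CPM in *nlg-1* (ok259) and 1.12, 1.12 and 1.60 CPM in *nlg-1* (tm474), against 0.275, 0.411 and 0.213 CPM in N2, where these values stand for 6, 9 and 6 counts. With every N2 library under 10 counts, *ugt-14* met the choice of members through mutant libraries alone. The libraries of *nrx-1* (ok1649) and *nlg-1* (tm474) were all above N2. The log2 fold change was 2.98 (SE 0.55, adjusted p = 0.212) in *nrx-1* (ok1649) and 2.03 (SE 0.63, adjusted p = 0.588) in *nlg-1* (tm474) in edgeR. The gene *ugt-43* (WBGene00008485, chromosome IV, 10464588 to 10467297, plus strand) had 4.59, 13.04 and 10.6 CPM in *nrx-1* (ok1649), 3.41, 5.16 and 7.23 CPM in *nrx-1* (tm1961), 3.19, 7.505 and 5.11 CPM in *nlg-1* (ok259) and 4.32, 4.04 and 1.96 CPM in *nlg-1* (tm474), against 1.55, 1.42 and 2.13 CPM in N2. Only *nlg-1* (tm474) overlapped N2, through replicate 3. The log2 fold changes in edgeR were 2.35 (SE 0.51, adjusted p = 0.212) in *nrx-1* (ok1649), 1.67 (SE 0.41, adjusted p = 0.0745) in *nrx-1* (tm1961) and 1.40 (SE 0.52, adjusted p = 0.319) in *nlg-1* (ok259). Without the libraries rich in noncoding RNA, *ugt-43* had 1.14 for ok1649 and 0.54 for ok259 worms, and with that share in the fit it had 0.88 in *nrx-1* (tm1961).

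The genes *ugt-39* and *ugt-41* lie next to each other on chromosome V (7157142 to 7159235 and 7161068 to 7163595) on opposite strands. For *ugt-41* the values were 40.6, 54.6 and 55.1 CPM in *nrx-1* (ok1649), 8.55, 24.6 and 41.2 CPM in *nrx-1* (tm1961), 12.7, 15.1 and 35.3 CPM in *nlg-1* (ok259) and 40.3, 58.4 and 25.8 CPM in *nlg-1* (tm474), against 9.61, 10.5 and 6.16 CPM in N2. For *ugt-39* they were 4.89, 11.97 and 7.54 CPM in *nrx-1* (ok1649), 2.17, 3.82 and 8.24 CPM in *nrx-1* (tm1961), 4.14, 7.09 and 6.22 CPM in *nlg-1* (ok259) and 6.72, 10.8 and 5.68 CPM in *nlg-1* (tm474), against 1.19, 2.42 and 0.783 CPM in N2. Both genes were above N2 in every mutant library except replicate 1 of *nrx-1* (tm1961). In edgeR the log2 fold change of *ugt-41* was 2.42 (SE 0.45, adjusted p = 0.212) in *nrx-1* (ok1649) and 2.19 (SE 0.49, adjusted p = 0.588) in *nlg-1* (tm474), and that of *ugt-39* was 2.37 (SE 0.58, adjusted p = 0.212) and 2.36 (SE 0.64, adjusted p = 0.588) in these strains. Without the libraries rich in noncoding RNA, *ugt-39* had 1.45 in *nrx-1* (ok1649).

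**Figure D4:**
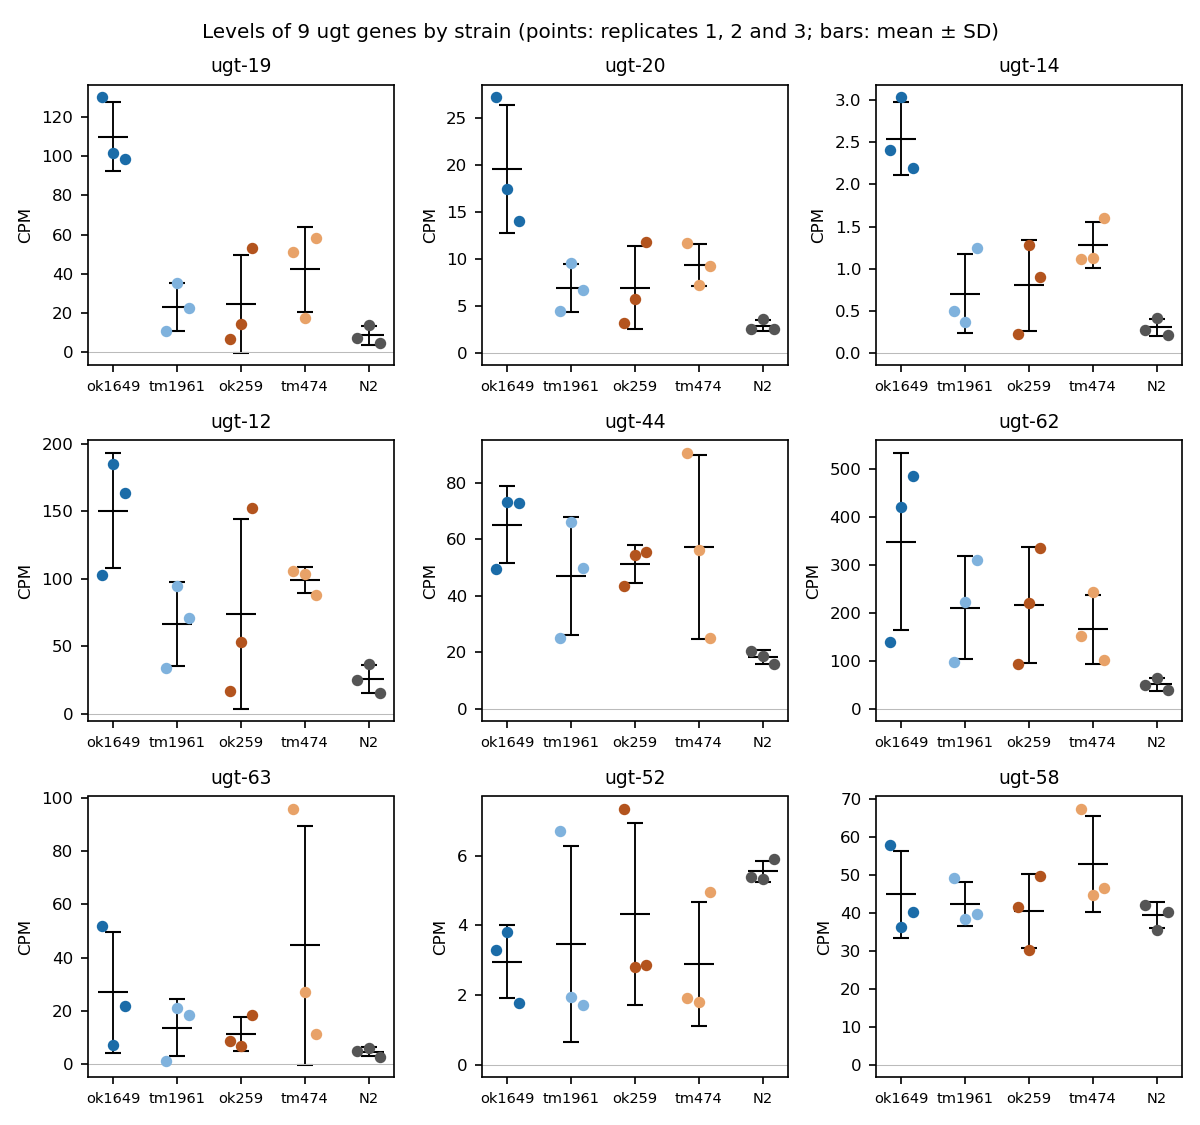
Levels (CPM) of 9 *ugt* genes by strain, with points for replicates 1, 2 and 3 from left to right and bars for the mean ± SD (n = 3). For *ugt-19* the 3 *nrx-1* (ok1649) libraries had 98.6 to 130.2 CPM and the 3 N2 libraries 4.27 to 13.7 CPM, whereas *ugt-58* had overlapping values in 3 of the 4 mutant strains and N2.

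The gene *ugt-44* (WBGene00008486, chromosome IV, 10469741 to 10471899, plus strand), next to *ugt-43*, is named in the study with genes of the immune response. It had 49.3, 73.1 and 72.7 CPM in *nrx-1* (ok1649), 24.9, 66.1 and 49.8 CPM in *nrx-1* (tm1961), 43.3, 54.5 and 55.3 CPM in *nlg-1* (ok259) and 90.4, 56.1 and 25.1 CPM in *nlg-1* (tm474), against 20.4, 18.7 and 15.7 CPM in N2. Each mutant library lay above all N2 libraries, and replicate 1 of *nrx-1* (tm1961) and replicate 3 of *nlg-1* (tm474) were the closest to them. The log2 fold changes in edgeR were 1.73 (SE 0.43, adjusted p = 0.212) in *nrx-1* (ok1649), 1.40 (SE 0.41, adjusted p = 0.0803) in *nrx-1* (tm1961), 1.25 (SE 0.36, adjusted p = 0.263) in *nlg-1* (ok259) and 1.51 (SE 0.47, adjusted p = 0.588) in *nlg-1* (tm474). Without the libraries rich in noncoding RNA they were 1.14 in *nrx-1* (ok1649), 0.88 in *nlg-1* (ok259), and 1.45 for *ugt-44* in *nlg-1* (tm474). With the noncoding share as a covariate the log2 fold change of *ugt-44* in *nrx-1* (tm1961) was 1.19. DESeq2 called *ugt-44* in the strains for which the study lists it. Its DESeq2 log2 fold changes were 1.71 (adjusted p = 0.011) in *nrx-1* (ok1649), 1.38 (adjusted p = 0.020) in *nrx-1* (tm1961) and 1.34 (adjusted p = 0.016) in *nlg-1* (ok259). In *nlg-1* (tm474) the DESeq2 value was 1.52 (adjusted p = 0.224), which was not called.

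The gene *ugt-62* (WBGene00010904, chromosome III, 4537281 to 4540623, minus strand), among the most abundant members, had the largest value of any member in several mutant libraries. It had 139.5, 422 and 486 CPM in *nrx-1* (ok1649), 97.9, 223 and 311 CPM in *nrx-1* (tm1961), 93.3, 222 and 335 CPM in *nlg-1* (ok259) and 152, 243 and 102 CPM in *nlg-1* (tm474), against 50.2, 64.2 and 38.1 CPM in N2. No mutant library overlapped N2. All *nrx-1* (tm1961) libraries were rich in noncoding RNA, so that the place of the highest value there says nothing about that share. The other strains also had their highest value in a library rich in noncoding RNA. Among ok1649 and ok259 worms only replicate 1 was poor in it, and a link of *ugt-62* to that share was not tested. The log2 fold changes in edgeR were 2.66 (SE 0.66, adjusted p = 0.212) in *nrx-1* (ok1649), 2.09 (SE 0.48, adjusted p = 0.0745) in *nrx-1* (tm1961), 1.89 (SE 0.60, adjusted p = 0.287) in *nlg-1* (ok259) and 1.66 (SE 0.47, adjusted p = 0.588) in *nlg-1* (tm474). Without the libraries rich in noncoding RNA they were 1.16, 0.52 and 1.14 in *nrx-1* (ok1649), *nlg-1* (ok259) and *nlg-1* (tm474), and with that share in the fit *ugt-62* had 0.99 in *nrx-1* (tm1961).

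Further members were named by their rank in single strains and are not particular to those. In *nrx-1* (tm1961) *ugt-17* (WBGene00007422, chromosome V, 10102592 to 10104964, minus strand) had 30.4, 23.2 and 43.9 CPM, against 9.97, 9.95 and 8.89 CPM in N2, and *ugt-5* (WBGene00013906, chromosome V, 12790676 to 12792965, minus strand) had 31.8, 26.9 and 40.4 CPM, against 12.6, 9.95 and 10.4 CPM in N2. Both were clear of N2 in every library, with log2 fold changes of 1.80 (SE 0.34, adjusted p = 0.0745) and 1.63 (SE 0.31, adjusted p = 0.0745) in edgeR. With the noncoding share as a covariate these were 0.44 for *ugt-17* and 0.37 for *ugt-5*. In *nlg-1* (ok259) *ugt-28* (WBGene00015693, chromosome I, 4727280 to 4730366, plus strand) had 9.58, 18.3 and 19.9 CPM, against 5.76, 4.47 and 3.74 CPM in N2, a log2 fold change of 1.55 (SE 0.47, adjusted p = 0.269) in edgeR. Replicate 1, the library poor in noncoding RNA, was the lowest of the strain, and with it as the only mutant library the log2 fold change of *ugt-28* was 0.68 (0.98 with the noncoding share in the fit). In *nlg-1* (tm474) *ugt-12* (WBGene00020592, chromosome V, 4887165 to 4889629, minus strand) had 106, 104 and 87.7 CPM, against 24.5, 36.7 and 15.5 CPM in N2, a log2 fold change of 1.87 (SE 0.42, adjusted p = 0.588) in edgeR. The noncoding shares of the 3 *nlg-1* (tm474) libraries were 7.35%, 20.3% and 4.99%. In *nlg-1* (ok259) *ugt-12* had 16.55, 52.85 and 152.4 CPM at shares of 2.99%, 30.3% and 30.3%. It had 102.7, 184.9 and 163.3 CPM in *nrx-1* (ok1649) at 3.51%, 21.0% and 25.3%. In *nrx-1* (tm1961) the values were 33.49, 94.78 and 71.11 CPM at 23.8%, 15.6% and 26.4%. Whether the noncoding share has a part in these levels was not tested.

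The genes *ugt-63* and *ugt-59* are given because DESeq2 called them, and were chosen after their values were seen. In *nlg-1* (tm474) *ugt-63* (WBGene00015449, chromosome V, 5108180 to 5110772, minus strand) had 95.6, 27.2 and 11.2 CPM, against 5.08, 6.07 and 2.77 CPM in N2, the largest log2 fold change of a member in that strain at 3.06 (SE 0.73, adjusted p = 0.588) in edgeR. All 3 libraries were above N2, with replicate 1 several times higher than the others. In *nlg-1* (ok259) *ugt-59* (WBGene00011238, chromosome IV, 10360636 to 10363339, plus strand), whose exons overlap those of *sir-2.1*, had 1.02, 3.98 and 1.91 CPM, against 0.137, 0.411 and 0.498 CPM in N2, with a log2 fold change of 2.47 (SE 0.76, adjusted p = 0.274) in edgeR.

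Few members had all 3 libraries of a mutant strain below N2. The gene *ugt-52* (WBGene00018931, chromosome IV, 778784 to 784182, plus strand) had 3.28, 3.81 and 1.78 CPM in *nrx-1* (ok1649) and 1.92, 1.79 and 4.96 CPM in *nlg-1* (tm474), against 5.40, 5.34 and 5.91 CPM in N2, without overlap. The log2 fold change in edgeR was -0.98 (SE 0.47, adjusted p = 0.305) in *nrx-1* (ok1649) and -0.99 (SE 0.58, adjusted p = 0.661) in *nlg-1* (tm474). The gene *ugt-61* had 3.31, 4.12 and 4.60 CPM in *nrx-1* (tm1961), against 7.09, 5.11 and 5.44 CPM in N2 (-0.51 (SE 0.32, adjusted p = 0.284) in edgeR). The gene *ugt-30* had 1.92, 3.41 and 2.60 CPM in *nlg-1* (tm474), against 5.99, 4.79 and 3.59 CPM in N2 (-0.88 (SE 0.55, adjusted p = 0.679) in edgeR). None of these 4 differences had an unadjusted p below 0.05. For *ugt-30*, *ugt-61* and, in *nlg-1* (tm474), *ugt-52* the highest mutant value and the lowest N2 value were close together. With the noncoding share in the fit *ugt-52* had -0.43 in *nrx-1* (ok1649).

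Of the other abundant members, *ugt-22* had 209.8, 329 and 239 CPM in *nrx-1* (ok1649), 31.8, 237 and 208 CPM in *nrx-1* (tm1961), 174, 105 and 219 CPM in *nlg-1* (ok259) and 272, 212 and 233 CPM in *nlg-1* (tm474), against 109, 137 and 35.7 CPM in N2. Replicate 3 of N2 was far below the other N2 libraries, and the log2 fold changes of 1.37, 0.80, 0.58 and 1.25 had adjusted p values of 0.302 to 0.678 in edgeR. For *ugt-47* and *ugt-23* every mutant strain overlapped N2. Their log2 fold changes were 0.67 to 1.13 and 0.21 to 0.72. The gene *ugt-58* (WBGene00009450, chromosome II, 9584384 to 9586784, minus strand) was the steadiest across strains of the 5 most abundant, with 58.04, 36.3 and 40.3 CPM in *nrx-1* (ok1649), 49.1, 38.5 and 39.6 CPM in *nrx-1* (tm1961), 41.7, 30.3 and 49.7 CPM in *nlg-1* (ok259) and 67.3, 44.6 and 46.6 CPM in *nlg-1* (tm474), against 42.2, 35.6 and 40.3 CPM in N2. Its log2 fold changes ran from -0.20 to 0.31.

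The 2 alleles of each gene were compared with each other to see whether strains of one gene differed. Between *nrx-1* (tm1961) and *nrx-1* (ok1649) edgeR called 0 of 60 members, against 0.0247% of 16170 genes. There were 4 members with an unadjusted p below 0.05 and a lower level in *nrx-1* (tm1961), against 0.328% of all genes, and 0 with a higher level, against 0.383%. DESeq2 called 0. These members were *ugt-19* at a log2 fold change of -2.26 (SE 0.68), *ugt-14* at -1.88 (SE 0.68), *ugt-16* at -1.75 (SE 0.76) and *ugt-20* at -1.51 (SE 0.62), each with an adjusted p of 1.000 and with *nrx-1* (tm1961) libraries all below those of *nrx-1* (ok1649). The median over members was -0.43 and over all genes -0.16. With upper quartile scaling, or library totals alone, 1 member had an unadjusted p below 0.05 in place of 4, and the median over all genes was 0.02. With the noncoding share in the fit it was 9 members, all lower, with medians of -0.53 over members and -0.01 over all genes. Leaving out 1 library gave 1 to 9 members, all lower. The 9 came without replicate 1 of *nrx-1* (ok1649), with medians of -0.55 and 0.06. Shares of all genes were not computed for these fits. Between *nlg-1* (tm474) and *nlg-1* (ok259) edgeR called 0 of 59 members (0% of 15864 genes). One member, *ugt-63*, had an unadjusted p below 0.05, higher in *nlg-1* (tm474), against 0.403% of all genes, and 0 were lower, against 0.290%. Its log2 fold change was 1.88 (SE 0.81), with overlapping groups, and DESeq2 called 0. The median over members was -0.03 and over all genes -0.04. With upper quartile scaling, or library totals alone, 0 members had an unadjusted p below 0.05, and in the fit that includes the noncoding share the median of the members was 0.43, against 0.07 for all genes.

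Neighbouring *ugt* genes did not always share a pattern. Members within 10000 bases of each other formed 11 runs that held 31 of the 61 genes. The largest, of 7 genes on chromosome V from 4887165 to 4911399, held *ugt-12* and *ugt-14*, with log2 fold changes of 2.45 and 2.98 in *nrx-1* (ok1649), and also *ugt-11* and *ugt-9* at -0.15 and 0.60, with *ugt-8* and *ugt-13* at 1.10 and 1.10. A run of 4 genes on chromosome V from 12790676 to 12800271 held *ugt-5* and *ugt-6* at 2.07 and 1.91 in the same strain, on either side of *ugt-4* at 0.29. In the runs of *ugt-19* and *ugt-20* and of *ugt-43* and *ugt-44*, both genes had an unadjusted p below 0.05 in *nrx-1* (ok1649). So did *ugt-39* and *ugt-41*, but *ugt-36*, the other gene of their run, had a log2 fold change of 0.37 (unadjusted p = 0.563 in edgeR). The genes with such a p were already named by rank or by the study, so that their likeness rests in part on that choice. Of all genes, 13% had such a p with a higher level in this strain. Only uniquely mapped reads were counted, so that reads from stretches that neighbours share are missing from both.

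Other genes of xenobiotic metabolism were counted as a background to the family. Values for ok1649, tm1961, ok259 and tm474 worms are given in that order. Of the 81 cytochrome P450 (*cyp*) genes found, 14 of 57, 11 of 56, 4 of 54 and 5 of 57 tested had an unadjusted p below 0.05 with a higher level, and 3, 0, 1 and 2 with a lower level. Their median log2 fold changes were 0.59, 0.63, 0.31 and 0.23. Of the glutathione S-transferases and the sulfotransferase gene *ssu-1*, the other phase II enzymes listed, 11 of 41, 13 of 41, 6 of 40 and 13 of 43 were higher and 1, 0, 2 and 0 lower on the same criterion, with medians of 0.66, 0.77, 0.36 and 0.52. Of the ABC transporters of the *pgp* and *mrp* families, which export conjugates, 1 of 20, 2 of 22, 1 of 21 and 0 of 21 were higher and 2, 6, 3 and 1 lower, with medians of 0.04, -0.54, -0.05 and 0.13. Of all genes, 13%, 18.6%, 6.44% and 5.20% had an unadjusted p below 0.05 with a higher level in these strains. With a lower level the shares were 5.11%, 15.6%, 7.76% and 3.21%. Whether the lists differed from these shares was not tested. No gene of these lists was called by edgeR. The medians of the *ugt* genes, 1.13, 0.96, 0.76 and 0.86, were above those of these 3 lists in each strain, and this difference was not tested.

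Genes that supply or control these enzymes were also examined. The gene *sqv-7*, a Golgi transporter of UDP-sugars, had log2 fold changes of 1.31 (SE 0.46, adjusted p = 0.222) in *nrx-1* (ok1649), 1.34 (SE 0.42, adjusted p = 0.0867) in *nrx-1* (tm1961), 1.13 (SE 0.36, adjusted p = 0.286) in *nlg-1* (ok259) and 0.93 (SE 0.43, adjusted p = 0.597) in *nlg-1* (tm474) in edgeR. The gene *sqv-4*, which encodes UDP-glucose dehydrogenase and so makes UDP-glucuronic acid, had 0.08 to 0.33, each within its SE. The 7 regulators included *skn-1*, the Nrf-type factor that drives phase II genes, its inhibitor *wdr-23*, the nuclear receptor *nhr-8* and the Mediator subunit *mdt-15*. The others were the aryl hydrocarbon receptor gene *ahr-1*, the gene of its partner protein, *aha-1*, and the intestinal GATA factor *elt-2*. None of the 7 regulators was called in any strain. In *nrx-1* (tm1961) 3 had an unadjusted p below 0.05, all lower, namely *skn-1* at -1.11 (SE 0.34), *wdr-23* at -0.77 (SE 0.31) and *mdt-15* at -1.39 (SE 0.50), with adjusted p values of 0.0834, 0.132 and 0.106 in edgeR. Of all genes in this strain, 15.6% had an unadjusted p below 0.05 with a lower level. In the other strains 0 of the 7 regulators had an unadjusted p below 0.05.

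Markers of the intestine, a main tissue of this metabolism, had negative median log2 fold changes in all 4 strains. So did markers of the pharynx and of sperm. The 7 intestinal genes found of 8 listed, none of them at 0, summed to 816.1 to 10748 CPM in *nrx-1* (ok1649), 1362 to 3665 CPM in *nrx-1* (tm1961), 770.4 to 9878 CPM in *nlg-1* (ok259) and 1782 to 10955 CPM in *nlg-1* (tm474), against 6253 to 12161 CPM in N2. In the 8 mutant libraries rich in noncoding RNA they summed to 770.4 to 3665 CPM, and in the other 4 to 9279 to 10955 CPM. The medians were -0.73, -1.43, -1.26 and -0.63 for ok1649, tm1961, ok259 and tm474 worms, and 0, 4, 1 and 0 of the 7 genes had an unadjusted p below 0.05, all of them lower. Of all genes, 5.11%, 15.6%, 7.76% and 3.21% had such a p with a lower level. For 6 pharyngeal genes the medians were -0.56, -1.71, -1.18 and -0.79 in this order, for 8 epidermal genes -1.88, -0.62, -1.36 and 0.29, and for 6 body wall muscle genes -0.59, -0.88, -0.33 and 0.02. The 7 neuronal markers of 7 summed to 174.3 to 208.6 CPM in *nrx-1* (ok1649), 138.2 to 151.7 CPM in *nrx-1* (tm1961), 174.1 to 175.3 CPM in *nlg-1* (ok259) and 171.0 to 187.9 CPM in *nlg-1* (tm474), against 156.5 to 171.2 CPM in N2. The 39 sperm genes summed to 1636 to 4364 CPM in the mutant libraries and to 3464 to 5918 CPM in N2. Their medians were -0.94, -0.82, -1.76 and -1.06 in the same order of strains. Of 35 sperm genes tested, 6, 7, 26 and 18 had an unadjusted p below 0.05 in edgeR with a lower level, and 0 with a higher level. The 8 molting genes summed to 61.7 to 3663 CPM in the mutant libraries and to 95.8 to 1546 CPM in N2. Whether these shifts have a part in the levels of the *ugt* genes was not tested.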

How the data were processed

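Gene counts of 15 libraries (5 strains, 3 independent worm preparations each) were deposited by the authors as raw counts per gene. They had prepared rRNA-depleted strand-specific libraries, trimmed reads with Trimmomatic, aligned them with STAR and counted uniquely mapped reads on exons with featureCounts, and they tested with DESeq2. bcl2fastq 2.20 and WBcel235 come from the submitters' processing notes, and the strand setting of the counting is not given in the sources used here. Totals of 10152578 to 26211067 counts per library set the precision. Libraries were grouped by their labels, and the gene positions and exon lengths come from Ensembl release 115, which held 46581 of 46756 IDs.

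Each mutant strain was compared with N2, and the 2 alleles of a gene with each other, 3 libraries against 3, with edgeR 4.0.16 in R 4.3.3: TMM factors, filterByExpr, a quasi-likelihood test and Benjamini-Hochberg adjustment over all genes tested. An F test over the 15 libraries asked for any difference among strains. Called genes had an adjusted p under 0.05 together with a log2 fold change beyond 1 in size. The SE of a log2 fold change is its absolute value over the square root of F. CPM used TMM factors over the 15 libraries, and levels per exon length are CPM per kb. P-values measure the spread between 3 preparations per strain, and an exact permutation test of 3 against 3 cannot go below 0.1. No 2 libraries of a strain agreed within sampling noise (chi-square per degree of freedom 28.25 to 921). Scripts were tested on simulated data.

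Genes were named by their rank in the F test (6) and in each comparison with N2 (up to 2 higher and 2 lower, with no overlap with N2), by level in N2 (5) and by mention in the study. Extremes of a range were named after their values were seen. The members and lists were chosen with earlier results of these data known. Alternatives were DESeq2 1.42.0, other scalings and filters, all 15 libraries in one fit, the noncoding share as a covariate, leaving out each library and the replicate number as a block. Leaving out the libraries above 10% noncoding RNA was chosen after seeing the data, and left 1, 1 and 2 libraries of *nrx-1* (ok1649), *nlg-1* (ok259) and *nlg-1* (tm474), a lone library being assumed to vary like the other groups. Replicate numbers were taken to pair libraries where the correlations of same-numbered deviations all exceeded 0.1, over 17395 genes: 0.653, 0.166 and 0.619 for *nrx-1* (tm1961) with N2, and 0.752, 0.561 and 0.298 for *nlg-1* (tm474) with *nlg-1* (ok259). This rests on the counts alone. Genes that overlap, or that share sequence with a near copy, are uncertain.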

Additional observations from a re-analysis of the deposited data

How the results depend on the processing

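Against 0 members called in each comparison with N2 by edgeR on 6 libraries, DESeq2 called 14 for ok1649, 14 for tm1961, 5 for ok259 and 2 for tm474 worms, and its likelihood ratio test over the strains gave 2. Without a filter on low counts edgeR called 9 for ok1649 and 3 for tm474, with 0.469% and 0.386% of all genes called higher. With the replicate block, edgeR called 20 members in *nrx-1* (tm1961), and the pairing changed no other call. Leaving out 1 library at a time gave 0 to 31 calls for ok1649, 0 to 22 for tm1961 and 0 to 29 for ok259, the highest each time without replicate 1 of the mutant strain, where 21.2%, 18.9% and 19.4% of all genes were called higher and 24.6%, 17.6% and 22.9% lower, and 0 in *nlg-1* (tm474). The other alternatives, those for the allele comparisons and the F test included, called 0. The median log2 fold change of the members was 0.12 for ok1649, -0.24 for ok259 and 0.50 for tm474 without the libraries above 10% noncoding RNA, and with that share as a covariate 0.61, 0.19, 0.23 and 0.61 for ok1649, tm1961, ok259 and tm474. With 1 library left out it was 0.57 to 1.40, 0.83 to 1.08, 0.38 to 1.24 and 0.42 to 1.16 in the same order. Scaling moved the median of all genes by at most -0.061 for ok1649, 0.13 for tm1961, 0.15 for ok259 and -0.14 for tm474. Without genes above 5% of a library, the median of the members was 0.88, 1.02, 0.88 and 0.83 in this order. That of all genes was then -0.12, 0.17, 0.10 and 0.07. Of 920 alternative log2 fold changes of named genes, 838 kept direction and side of the threshold, 64 passed it and 18 changed sign. Without the libraries rich in noncoding RNA the sign changed for *ugt-20* (-0.21), *ugt-19* (-0.69), *ugt-47* (-0.58) and *ugt-23* (-0.29) in *nlg-1* (ok259), and for *ugt-23* in *nrx-1* (ok1649) (-0.60) and *nlg-1* (tm474) (-0.16). With the covariate it changed for *ugt-61* (0.0071) and *ugt-23* (-0.12) in *nrx-1* (tm1961), *ugt-23* in *nlg-1* (tm474) (-0.041) and *ugt-58* in *nlg-1* (ok259) (0.23). For *ugt-58* it also changed in *nlg-1* (ok259) with all 15 libraries fitted (0.043), and in *nrx-1* (ok1649) without a filter (-0.029) and without genes above 5% of a library (-0.16). Leaving out 1 library gave -0.24 to 0.12 for *ugt-58* in *nrx-1* (ok1649), and -0.18 to 0.38 for *ugt-23* in *nlg-1* (tm474). The cause was not tested. Members under 10 counts in most N2 libraries, such as *ugt-14*, are limited by depth.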
